A study of Danio rerio with 10 samples.

Results

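The mitosis and kinetochore genes of the zebrafish embryo were followed across 4 kinds of sample in a study of *islet2a*, a LIM-homeodomain transcription factor of motor neurons. Genes were taken by symbol: cyclins A and B, Cdk1 and its Cdc25 phosphatases, Polo and Aurora kinases and survivin, spindle checkpoint genes, Cdc20, separase and securin, centromere and kinetochore proteins, mitotic kinesins, condensins and topoisomerase II alpha. This rule used no measured value, but it was chosen with earlier results of these data known. It found 62 genes on 66 probe sets, out of 19260 genes that the array annotation names by a single symbol. Where a gene had more than 1 probe set (*cenpe*, *cenpk*, *cenpo* and *kif2c*), the one with the highest mean over the 10 arrays was kept. The match on symbols also took 4 genes only for the start of their name (*aurkaip1*, *ccnb1ip1*, *pttg1ipa* and *pttg1ipb*), which leaves 58 without them. Probe sets with the single symbols *mad2l1*, *cenpa*, *tpx2*, *smc2* and *spc24* were not found on the annotation, and these genes were not analysed here. The match was on lower-case symbols, so CENPF and MAD2L1BP, which the annotation writes in capitals, were left out as well.

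Entry into mitosis is driven by Cdk1 bound to cyclin A or B, after Cdc25 phosphatases remove the inhibitory phosphates of the kinase. Condensins and topoisomerase II then compact the chromosomes, the kinetochore built on the centromere captures spindle microtubules, and the spindle checkpoint holds the anaphase-promoting complex back until all chromosomes are attached. Cdc20 activates that complex, separase cuts cohesin, and kinesins with the exchange factor Ect2 organise the central spindle and cytokinesis. Most of these genes are transcribed late in the cell cycle in dividing cells. In a whole embryo much of their RNA may come from tissues that still proliferate, but its source was not measured here. In RNA from whole embryos, fewer dividing cells and less RNA per dividing cell cannot be told apart.

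Each array held RNA from a pool of whole embryos at 48 hpf (2 dpf). Morphants (3 arrays) were wildtype embryos injected with T-MO, an antisense morpholino that blocks translation of *islet2a*. Mutants (3 arrays) were homozygous for a TALEN-made deletion in exon 2 of *islet2a* that shifts the reading frame, and all come from a single allele. Their homozygous wildtype siblings, named mock controls in the labels (2 arrays), and uninjected wildtype embryos (2 arrays) were joined as the 4 controls. No array came from embryos injected with a control morpholino (0 arrays), so injection and loss of translation cannot be told apart. Separate clutches are not stated for the pools, so every p-value covers the pool-to-pool spread alone.

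Values are log2 signals, by the paper's methods after robust multi-array averaging, and a difference of 1 is a 2-fold change. limma tested 75212 probe sets with a variance shared by the 3 groups, and adjusted p-values (Benjamini-Hochberg) cover all of them. A call required at least a 2-fold difference and an adjusted p below 0.05. Below, "rose" and "fell" stand for an adjusted p below 0.05 at any size. Arrays of a group correlated at r = 0.983 to 0.992 over all probe sets and arrays of different groups at 0.972 to 0.988. The targeted gene, *isl2a*, read 8.59 and 8.51 in uninjected wildtype, 8.57 and 8.61 in siblings, 9.79, 9.96 and 9.91 in morphants, and 8.95, 9.12 and 9.13 in mutants. Its RNA rose by 1.32 in morphants (limma adjusted p = 5.18e-05) and by 0.50 in mutants (0.0474), and it does not check a block of translation or a frameshift. The p in mutants lies close to the threshold, and *isl2a* was not run through the alternatives. By qPCR the authors found *islet2a* higher in morphants and detected no change in mutants. Every measured marker on the lists of skeletal muscle, blood, epidermis and neurons lay above the median probe set in all 3 groups. So did 7 of 8 lens and 5 of 6 heart markers, but only 1 of 7 germ cell markers.

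In mutants, 59 of 62 mitotic genes had a lower mean signal than in controls (95.2%), where 47.5% of all probe sets and 51.5% of the named genes did. Their median difference was -0.42 on the log2 scale, against 0.01 over all probe sets. No member reached the threshold for a call (0 of 62, 0.164% of all probe sets called) or an adjusted p below 0.05 by limma (0 lower, 0.179%, and 0 higher, 0.158%), and the lowest adjusted p was 0.0539, for *kif14*. At an unadjusted p below 0.05, limma found 44 lower (71.0% of members, 6.09% of probe sets, 8.85% of named genes) and 0 higher (7.32%), and the methods' 2-group analysis of variance found 38 lower and none past adjustment. In 36 genes all 3 mutant arrays lay below all 4 controls (58.1% of members, 5.65% of probe sets, 8.93% of named genes) and in 0 above them (6.43%).

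The mutant arrays did not move alike. With each gene centred on its mean over the 10 arrays, the mean of the 62 genes was -0.03, -0.34 and -0.26 in the mutants, 0.11 and 0.27 in uninjected wildtype, and 0.19 and 0.06 in siblings. Mutants 2 and 3 lay far below every control on this mean and mutant 1 lay closer to them. Mutant 2 was the lowest of all 10 arrays for 43 genes and uninjected wildtype 2 the highest for 34. Mutants 1, 2 and 3 lay below all controls for 38, 54 and 55 genes. None of these counts by single array was made over all probe sets, so no share stands beside them. The median SD of the members within the mutants was 0.193, against 0.135 for all probe sets, while within controls it was 0.138 against 0.163. With mutant 1 left out, 8 members fell (*birc5a*, *bub1*, *ccnb1*, *ccnb3*, *cdc25b*, *kif2c*, *ncapg* and *ncaph*). With sibling 2 left out 1 did (*kif14*). For fits with an array left out and for other alternatives, in every paragraph, the share of all probe sets that passed was not counted. Whether such counts changed more for the members than for other genes was therefore not tested. The median difference was -0.51 without mutant 1 and -0.32 without mutant 2.

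**Figure D1:**
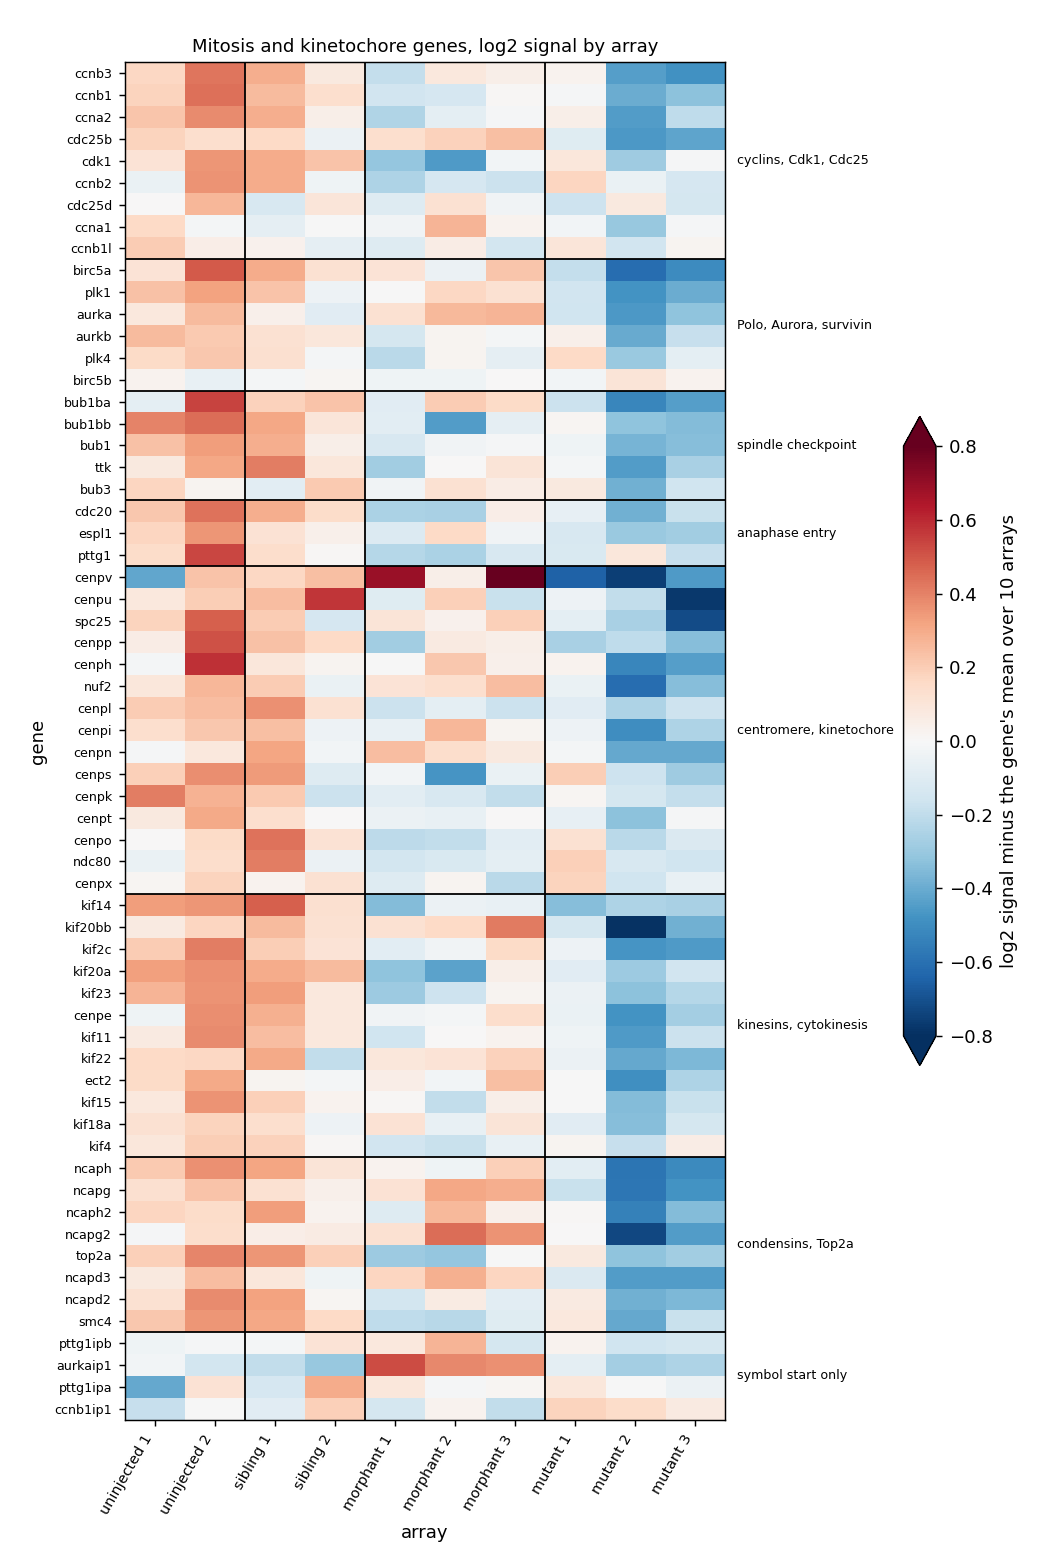
Log2 signal of the 62 genes (rows, grouped by role) on the 10 arrays (columns), minus each gene's mean over the arrays, on a colour scale that stops at 0.8 either side of 0. Mutants 2 and 3 are blue over nearly all roles, uninjected wildtype 2 is red, and the morphant columns are mixed.

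In morphants, 48 of 62 mitotic genes had a lower mean than in controls (77.4%), where 55.3% of all probe sets and 51% of the named genes did. The median difference was -0.17 against -0.02 over all probe sets. None was called (0 of 62, 0.818% called), but 4 fell (6.45% of members, 1.57% of probe sets, 2.81% of named genes): *kif20a*, *kif14*, *cenpl* and *cdk1*. One of the 4 genes matched only by the start of its symbol, *aurkaip1*, rose (3.59% of probe sets, 7.13% of named genes). At an unadjusted p below 0.05, limma found 19 lower (30.6% of members, 8.76% of probe sets, 12.4% of named genes) and 2 higher (10.2%, *aurkaip1* and *cenpv*), and in 20 genes the morphants lay below all controls (32.3% of members, 8.59% of probe sets, 11.9% of named genes). The methods' 2-group analysis of variance found 17 and 2, and 0 past adjustment. Without any 1 of uninjected wildtype 1 or 2, sibling 1, morphant 1 or morphant 2, none of the 4 passed (0 fell), and without mutant 3 only *kif20a* did. The count at an unadjusted p was 12 lower without morphant 1.

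The morphant arrays lay closer together than the mutant arrays. Their centred means were -0.05, 0.01 and 0.05. Single morphant arrays lay below all controls for 35, 28 and 31 genes, counts that were not made over all probe sets either. Morphant 3 was nearly level with the lowest control, sibling 2 at 0.06, and the others lay further below it. The median SD of the members within morphants was 0.115.

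**Figure D2:**
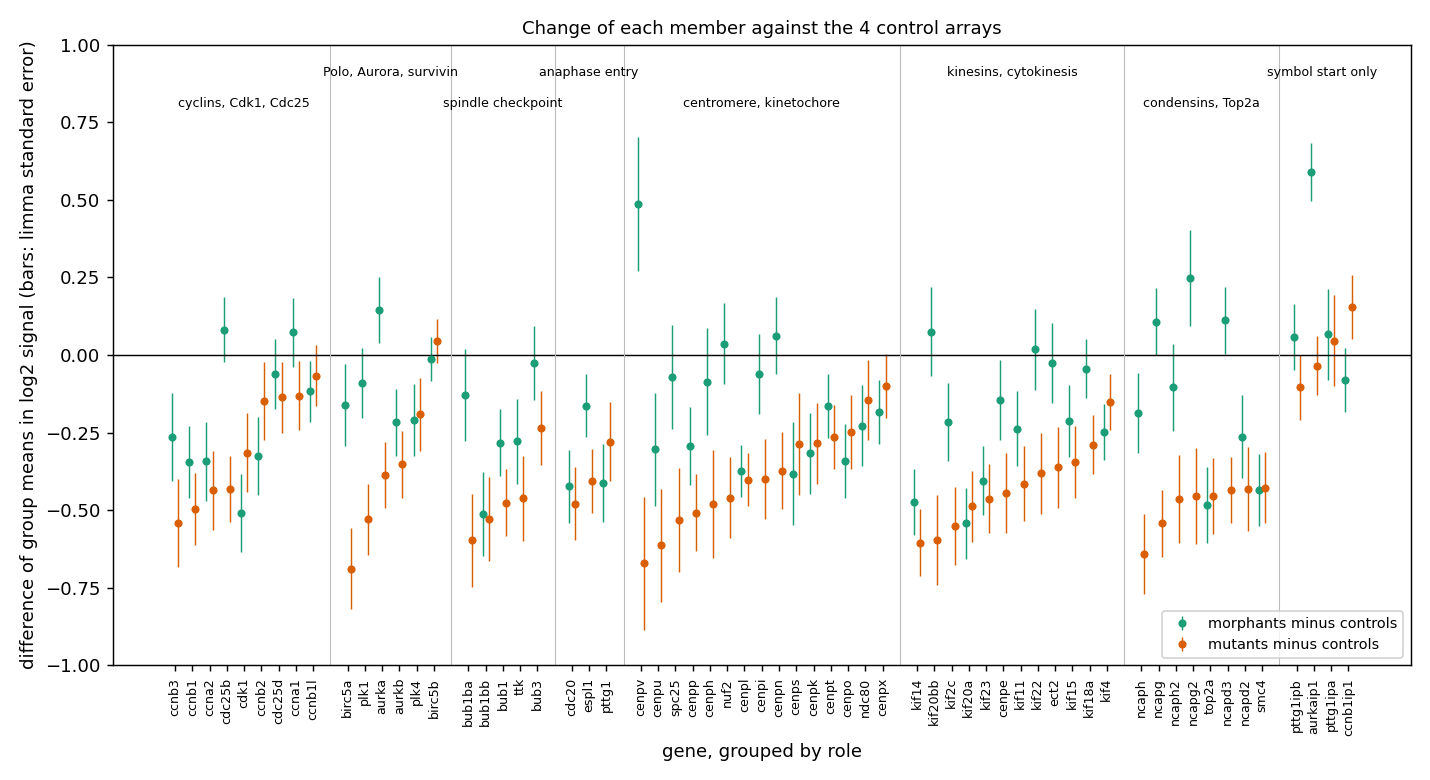
Difference in mean log2 signal from the 4 controls for each gene, grouped by role, in morphants (green) and mutants (orange), with limma standard errors. Nearly all mutant points lie below 0, while the morphant points range from -0.54 for *kif20a* to 0.59 for *aurkaip1*.

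Among the cyclins, Cdk1 and the Cdc25 phosphatases (9 genes), mutants were lower in 9 with a median of -0.31 (5 at an unadjusted p below 0.05), and morphants in 7 with a median of -0.26 (4). Cyclin B1 (*ccnb1*), which activates Cdk1 for entry into mitosis, read 8.32 and 8.58 in uninjected wildtype, 8.39 and 8.28 in siblings, 7.98, 8.01 and 8.15 in morphants, and 8.13, 7.74 and 7.81 in mutants. All morphant and mutant arrays lay below all controls, with mean differences of -0.35 ± 0.12 (SE) in morphants (limma adjusted p = 0.129) and -0.50 ± 0.12 in mutants (0.113). Cyclin A2 (*ccna2*), needed from S phase to early mitosis, read 9.31 and 9.47 in uninjected wildtype, 9.38 and 9.14 in siblings, 8.85, 9.01 and 9.08 in morphants, and 9.14, 8.64 and 8.89 in mutants. Here mutant 1 lay just below sibling 2, at the same rounded signal, while the morphants stayed clearly below all controls, and the mean differences were -0.34 ± 0.13 in morphants (adjusted p = 0.176) and -0.44 ± 0.13 in mutants (0.183).

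The kinase itself, *cdk1*, read 8.99 and 9.24 in uninjected wildtype, 9.18 and 9.11 in siblings, 8.57, 8.43 and 8.86 in morphants, and 8.97, 8.60 and 8.87 in mutants. It fell in morphants, by 0.51 (SE 0.13, limma adjusted p = 0.048), and differed by -0.31 ± 0.13 in mutants (0.317), with every morphant and mutant array below every control. Over 23 alternatives, the adjusted p in morphants ran from 0.0123 to 0.171. For *cdc25b*, the phosphatase that starts Cdk1 activation, the signals were 10.66 and 10.62 in uninjected wildtype, 10.64 and 10.44 in siblings, 10.62, 10.67 and 10.73 in morphants, and 10.39, 10.03 and 10.06 in mutants. The morphants overlapped the controls (0.08 ± 0.11, adjusted p = 0.747) and the 3 mutants lay below all other arrays (-0.43 ± 0.11, 0.125). The other B-type cyclins gave differences of -0.54 (*ccnb3*) and -0.15 (*ccnb2*) in mutants and -0.26 and -0.33 in morphants. *ccnb1l*, *cdc25d* and *ccna1* were dim and differed by -0.07, -0.14 and -0.13 in mutants.

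Among the Polo and Aurora kinases and survivin (6 genes), 4 were lower in mutants at an unadjusted p below 0.05 (median -0.37 over the 6) and 0 in morphants (median -0.13). Survivin (*birc5a*), which holds Aurora B at the centromere, read 7.49 and 7.87 in uninjected wildtype, 7.68 and 7.50 in siblings, 7.49, 7.33 and 7.60 in morphants, and 7.19, 6.77 and 6.88 in mutants. It had the largest difference of any member in mutants, -0.69 ± 0.13 (0.621-fold, limma adjusted p = 0.067, 0.0237 to 0.327 over 23 alternatives), and -0.16 ± 0.13 in morphants (0.575), whose arrays overlapped the controls. Polo-like kinase 1 (*plk1*), which acts at centrosomes, kinetochores and the midbody, read 9.42 and 9.51 in uninjected wildtype, 9.42 and 9.15 in siblings, 9.19, 9.36 and 9.31 in morphants, and 9.04, 8.71 and 8.79 in mutants. Only the mutants stood apart from the controls, at -0.53 ± 0.11 (0.0894) against -0.09 ± 0.11 in morphants (0.739).

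Aurora A (*aurka*), the kinase of the spindle poles, read 8.85 and 9.02 in uninjected wildtype, 8.80 and 8.67 in siblings, 8.89, 9.02 and 9.03 in morphants, and 8.60, 8.30 and 8.44 in mutants. Morphants 2 and 3 lay above every control and the mutants below, with differences of 0.14 ± 0.11 (adjusted p = 0.522) and -0.39 ± 0.11 (0.158). Aurora B (*aurkb*), the kinase of the chromosomal passenger complex, read 8.04 and 8.0 in uninjected wildtype, 7.91 and 7.88 in siblings, 7.64, 7.81 and 7.77 in morphants, and 7.83, 7.39 and 7.60 in mutants. All 3 morphants lay below all controls (-0.22 ± 0.11, 0.321), as did all 3 mutants (-0.35 ± 0.11, 0.2). *plk4*, which controls centriole duplication, differed by -0.21 in morphants and -0.19 in mutants, and *birc5b*, a dim probe set, differed by -0.01 and 0.04.

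All 5 spindle checkpoint genes had lower means in both groups, with medians of -0.48 in mutants (4 at an unadjusted p below 0.05) and -0.28 in morphants (2). The kinase *bub1* read 8.72 and 8.83 in uninjected wildtype, 8.78 and 8.54 in siblings, 8.36, 8.46 and 8.48 in morphants, and 8.45, 8.12 and 8.15 in mutants. Every morphant and mutant array lay below every control, with differences of -0.28 ± 0.11 (limma adjusted p = 0.184) and -0.48 ± 0.11 (0.103). The kinase Mps1 (*ttk*), which starts checkpoint signalling at unattached kinetochores, read 9.11 and 9.34 in uninjected wildtype, 9.44 and 9.12 in siblings, 8.75, 9.03 and 9.13 in morphants, and 9.02, 8.58 and 8.77 in mutants. In *ttk* morphant 3 reached the control range, at mean differences of -0.28 ± 0.14 (0.315) and -0.46 ± 0.14 (0.189).

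*bub1bb* and *bub1ba* are named as copies of the checkpoint gene *BUB1B*, whose human protein BubR1 binds and inhibits Cdc20. *bub1bb* read 8.76 and 8.81 in uninjected wildtype, 8.68 and 8.47 in siblings, 8.28, 7.92 and 8.29 in morphants, and 8.38, 8.05 and 8.02 in mutants. Both groups lay below all controls, at -0.51 ± 0.14 in morphants (adjusted p = 0.0589) and -0.53 ± 0.14 in mutants (0.137). For *bub1ba* the differences were -0.13 ± 0.15 in morphants (0.708) and -0.60 ± 0.15 in mutants (0.131). *bub3*, which carries Bub1 to the kinetochore, differed by -0.03 and -0.23, with overlap in both groups.

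Of the 3 genes of anaphase entry, *cdc20*, the activator of the anaphase-promoting complex, read 8.45 and 8.66 in uninjected wildtype, 8.52 and 8.38 in siblings, 7.98, 7.97 and 8.28 in morphants, and 8.17, 7.84 and 8.05 in mutants. Both groups lay below all controls, at -0.42 ± 0.12 in morphants (adjusted p = 0.071) and -0.48 ± 0.12 in mutants (0.125). Separase (*espl1*), the protease that cuts cohesin, read 7.39 and 7.57 in uninjected wildtype, 7.33 and 7.26 in siblings, 7.11, 7.38 and 7.19 in morphants, and 7.08, 6.92 and 6.94 in mutants. The mutants lay below all other arrays (-0.41 ± 0.10, 0.136) and the morphants overlapped the controls (-0.16 ± 0.10, 0.447). Securin (*pttg1*), the inhibitor of separase, is on a dim probe set and read 4.99 and 5.37 in uninjected wildtype, 4.98 and 4.85 in siblings, 4.61, 4.59 and 4.71 in morphants, and 4.72, 4.93 and 4.65 in mutants. Here the morphants lay below all controls and mutant 2 within them, at -0.41 ± 0.13 (0.101) against -0.28 ± 0.13 in mutants (0.377).

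**Figure D3:**
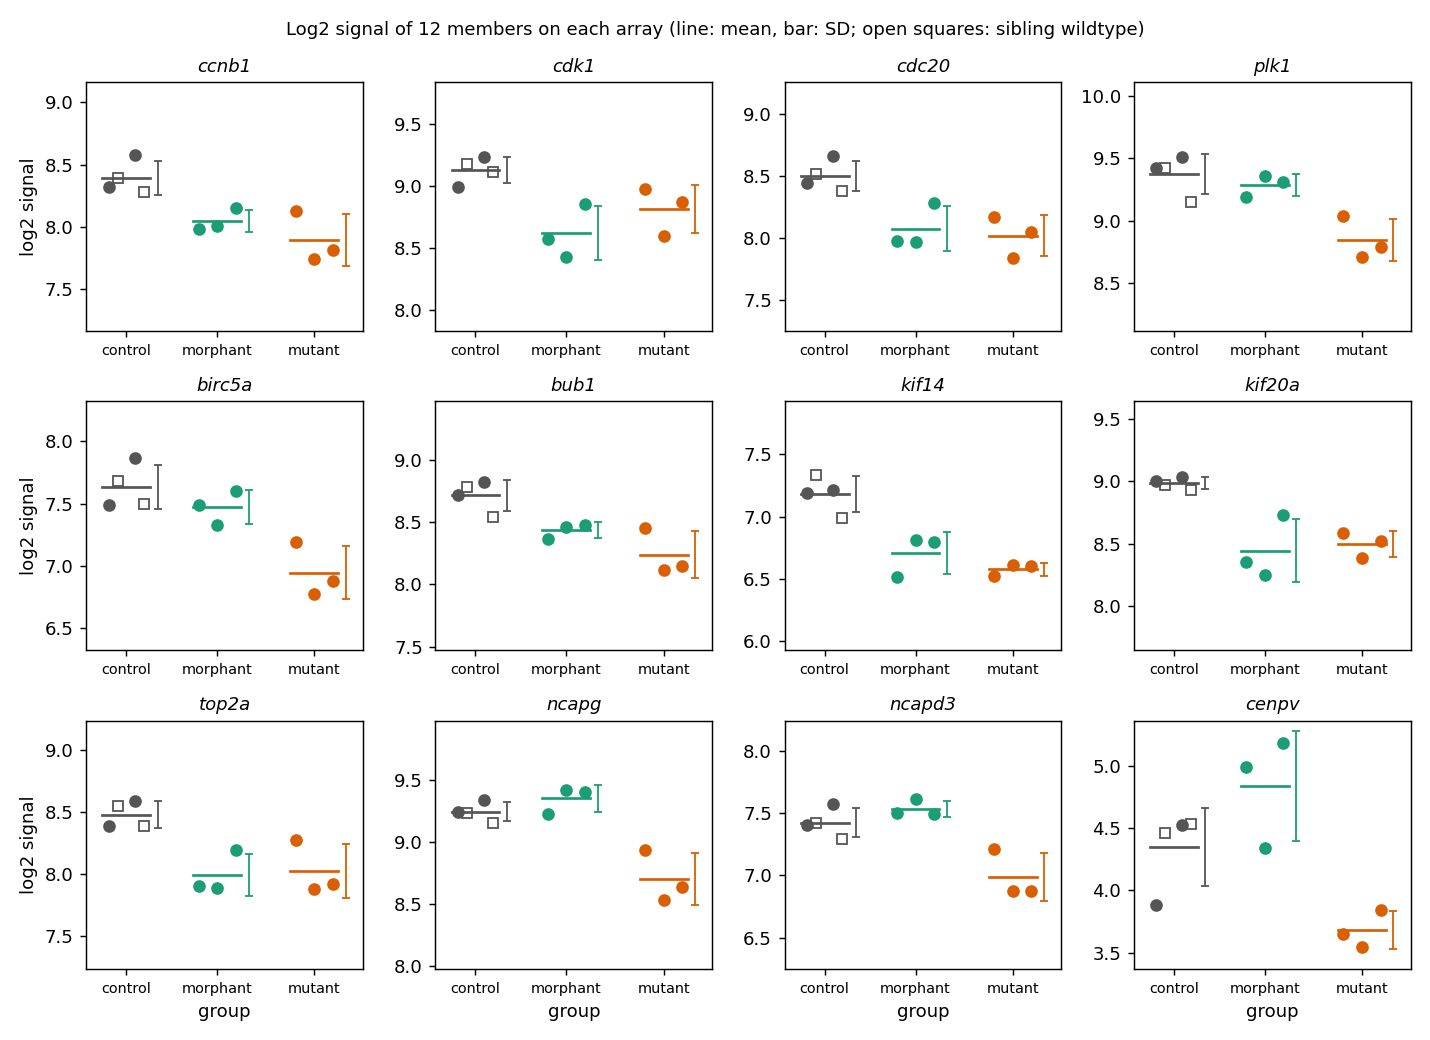
Log2 signal of 12 genes on each array, with the group mean (line) and SD (bar), in controls (grey, open squares for siblings), morphants (green) and mutants (orange). Every panel spans 2 log2 units. In *kif20a*, *top2a* and *cdc20* both groups lie below the controls, in *ncapg*, *ncapd3* and *plk1* only the mutants do, and in *cenpv* the morphants are the highest group.

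All 15 centromere and kinetochore genes had lower means in mutants (median -0.40, 10 at an unadjusted p below 0.05) and 12 of 15 in morphants (median -0.18, 5). In the Ndc80 complex, which binds microtubules, *ndc80* read 7.26 and 7.45 in uninjected wildtype, 7.72 and 7.26 in siblings, 7.16, 7.18 and 7.23 in morphants, and 7.50, 7.18 and 7.15 in mutants. The morphants lay just below the lowest control and mutant 1 lay within the controls, with differences of -0.23 ± 0.13 (limma adjusted p = 0.394) and -0.15 ± 0.13 (0.689). Its partners *nuf2* and *spc25* differed by -0.46 ± 0.13 (0.172) and -0.53 ± 0.17 (0.207) in mutants, which overlapped the controls, against 0.04 and -0.07 in morphants.

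Of the inner kinetochore genes, *cenpl* read 6.74 and 6.79 in uninjected wildtype, 6.90 and 6.66 in siblings, 6.37, 6.46 and 6.37 in morphants, and 6.45, 6.29 and 6.37 in mutants. It fell in morphants by 0.37 (SE 0.08, limma adjusted p = 0.0324, 0.00924 to 0.133 over 23 alternatives) and was as low in mutants (-0.40 ± 0.08, 0.0859), with no overlap with controls in either. The other inner kinetochore genes differed in mutants by -0.61 (*cenpu*), -0.51 (*cenpp*), -0.48 (*cenph*), -0.40 (*cenpi*), -0.37 (*cenpn*), -0.29 (*cenps*), -0.28 (*cenpk*), -0.26 (*cenpt*), -0.25 (*cenpo*) and -0.10 (*cenpx*). In morphants the same genes ran from -0.38 for *cenps* to 0.06 for *cenpn*.

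*cenpv* stood apart from the rest. On a dim probe set it read 3.88 and 4.52 in uninjected wildtype, 4.46 and 4.54 in siblings, 4.99, 4.34 and 5.18 in morphants, and 3.65, 3.55 and 3.84 in mutants. The mutants lay below all controls and 2 of 3 morphants above them, and the differences were 0.49 ± 0.22 in morphants (limma adjusted p = 0.255) and -0.67 ± 0.22 in mutants (0.214).

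All 12 kinesin and cytokinesis genes had lower means in mutants (median -0.43, 11 at an unadjusted p below 0.05) and 10 of 12 in morphants (median -0.21, 4). *kif14*, a kinesin of cytokinesis, read 7.19 and 7.21 in uninjected wildtype, 7.34 and 6.99 in siblings, 6.51, 6.81 and 6.80 in morphants, and 6.52, 6.61 and 6.60 in mutants. The mutant arrays lay close together, and both groups lay below all controls. It fell in morphants by 0.47 (SE 0.11, limma adjusted p = 0.0319, 0.0078 to 0.155 over 23 alternatives) and had the lowest adjusted p of all members in mutants (-0.60 ± 0.11, 0.658-fold, 0.0539, 0.0215 to 0.29). *kif20a*, the kinesin that brings the chromosomal passenger complex to the central spindle, read 9.0 and 9.04 in uninjected wildtype, 8.97 and 8.93 in siblings, 8.35, 8.25 and 8.73 in morphants, and 8.59, 8.38 and 8.52 in mutants. The controls lay close together, and every morphant and mutant was clearly below them. It fell in morphants by 0.54 (SE 0.12, 0.0245, 0.00544 to 0.136 over 23 alternatives) and differed by -0.49 ± 0.12 in mutants (0.115).

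The central spindle kinesin *kif23* read 8.05 and 8.13 in uninjected wildtype, 8.11 and 7.86 in siblings, 7.49, 7.61 and 7.80 in morphants, and 7.73, 7.45 and 7.54 in mutants. Both groups lay below all controls, at -0.40 ± 0.11 in morphants (adjusted p = 0.0666) and -0.46 ± 0.11 in mutants (0.117). *kif11*, which pushes the spindle poles apart, read 8.70 and 9.01 in uninjected wildtype, 8.88 and 8.72 in siblings, 8.47, 8.64 and 8.66 in morphants, and 8.60, 8.18 and 8.46 in mutants. Morphants lay just below the controls (-0.24 ± 0.12, 0.327) and mutants lower (-0.42 ± 0.12, 0.179). *cenpe*, the kinesin that moves chromosomes to the spindle equator, read 7.89 and 8.30 in uninjected wildtype, 8.21 and 8.01 in siblings, 7.90, 7.91 and 8.07 in morphants, and 7.87, 7.45 and 7.66 in mutants. Its morphants overlapped the controls (-0.14 ± 0.13, 0.611) and its mutants lay just below them (-0.44 ± 0.13, 0.177).

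*ect2*, an exchange factor needed for the cleavage furrow, read 8.54 and 8.68 in uninjected wildtype, 8.41 and 8.37 in siblings, 8.44, 8.36 and 8.62 in morphants, and 8.38, 7.89 and 8.14 in mutants. The morphants spread over the control range (-0.02 ± 0.13, limma adjusted p = 0.949) and mutants 2 and 3 lay below it (-0.36 ± 0.13, 0.257). The other kinesins differed in mutants by -0.60 (*kif20bb*), -0.55 (*kif2c*, which depolymerises microtubules), -0.38 (*kif22*, which acts on chromosome arms), -0.34 (*kif15*), -0.29 (*kif18a*) and -0.15 (*kif4*). Their differences in morphants ran from -0.25 for *kif4* to 0.08 for *kif20bb*.

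The 8 condensin and topoisomerase genes were all lower in mutants at an unadjusted p below 0.05 (8 of 8, median -0.45), while morphants had lower means in 5 of 8 (median -0.15, 2 at that p). Topoisomerase II alpha (*top2a*) read 8.39 and 8.59 in uninjected wildtype, 8.55 and 8.39 in siblings, 7.91, 7.88 and 8.19 in morphants, and 8.27, 7.88 and 7.92 in mutants. All morphants and mutants lay below all controls, at -0.48 ± 0.12 (limma adjusted p = 0.0516) and -0.45 ± 0.12 (0.156). *smc4*, the ATPase that both condensins share, gave -0.44 ± 0.11 in morphants (0.059) and -0.43 ± 0.11 in mutants (0.154). *ncapg* of condensin I read 9.24 and 9.34 in uninjected wildtype, 9.24 and 9.16 in siblings, 9.23, 9.42 and 9.41 in morphants, and 8.93, 8.53 and 8.63 in mutants. Morphants 2 and 3 lay above every control (0.11 ± 0.11, 0.66), and all mutants were lower (-0.54 ± 0.11, 0.074). *ncapd3* of condensin II read 7.41 and 7.58 in uninjected wildtype, 7.42 and 7.29 in siblings, 7.50, 7.61 and 7.50 in morphants, and 7.21, 6.88 and 6.88 in mutants. Its morphants lay in the upper part of the control range or above it (0.11 ± 0.11, 0.64) and its mutants below (-0.44 ± 0.11, 0.126). For *ncapg2* of condensin II the differences were 0.25 in morphants and -0.46 in mutants. The others were -0.26 and -0.43 for *ncapd2*, -0.10 and -0.46 for *ncaph2*, and -0.19 and -0.64 for *ncaph*, whose signals were 8.91 and 9.07 in uninjected wildtype, 9.02 and 8.81 in siblings, 8.73, 8.67 and 8.90 in morphants, and 8.62, 8.12 and 8.19 in mutants. The *ncaph* mutants lay below all other arrays (limma adjusted p = 0.0751).

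The 4 genes taken only for the start of their symbol did not share the lower signal in mutants (differences of -0.10 to 0.16, 0 at an unadjusted p below 0.05). *aurkaip1*, named for binding Aurora A and known in human cells as a protein of the mitochondrial ribosome, read 9.10 and 8.97 in uninjected wildtype, 8.93 and 8.82 in siblings, 9.64, 9.50 and 9.48 in morphants, and 9.04, 8.84 and 8.87 in mutants. It rose in morphants by 0.59 (SE 0.09, limma adjusted p = 0.00654, 0.00113 to 0.0542 over 23 alternatives), with all morphants above all other arrays, and differed by -0.03 ± 0.09 in mutants (0.919). The differences in morphants and mutants were -0.08 and 0.16 for *ccnb1ip1*, 0.07 and 0.05 for *pttg1ipa*, and 0.06 and -0.10 for *pttg1ipb*. Without these 4 genes the median was -0.43 in mutants and -0.20 in morphants.

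Set against each other directly, morphants had higher means than mutants for 46 of 62 genes (74.2%, against 43.5% of probe sets and 49.8% of named genes), with a median of 0.18 against -0.04 over all probe sets. One gene, *cenpv*, was called (2.52% of probe sets called, 1.64% higher). In morphants relative to mutants 11 rose (17.7% of members, 7.5% of probe sets, 13.5% of named genes), while 0 fell (6.11% and 9.63%), and the share that rose is close to that of the named genes. At an unadjusted p below 0.05, limma found 21 higher (33.9% of members, 13.8% of probe sets, 22.3% of named genes) and 0 lower (14.1%). The morphants lay above all mutants for 19 genes (30.6% of members, 16.4% of probe sets, 26.4% of named genes) and below all for 2 (18.9%), *ccnb2* and *ccnb1ip1*. By the methods' 2-group analysis of variance, 1 passed, *aurkaip1*. The median was 0.12 without mutant 2 and 0.27 without mutant 1. The count of genes that rose was 4 without mutant 2 (*aurkaip1*, *cenpv*, *kif20bb* and *ncapg*), 5 without mutant 3, 5 without morphant 3 and 16 without mutant 1.

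The 11 genes came from most roles. They were *ncapg* (by 0.65 ± 0.12 SE, limma adjusted p = 0.00587), *ncapg2* (0.70, 0.0204) and *ncapd3* (0.55, 0.0121) of the condensins, and *aurka* (0.53, 0.0131), *birc5a* (0.53, 0.0338) and *plk1* (0.44, 0.0385) of the kinases and survivin. The others were *cdc25b* (0.51, 0.0151), *kif20bb* (0.67, 0.0185), *nuf2* (0.50, 0.0426), *aurkaip1* (0.62, 0.0037) and *cenpv*. *cenpv* was higher by 1.16 ± 0.23 (2.23-fold, 0.00964), and without morphant 3 the difference was 0.99 (0.0336, 0.00174 to 0.103 over 22 alternatives), under 2-fold. With each array left out in turn, *aurkaip1*, *ncapg* and *cenpv* passed every time. *aurka* was lost without mutant 2, *kif20bb* without morphant 3, *ncapd3* without mutant 2 or mutant 3, and *cdc25b* without either of these or morphant 3. *birc5a* and *ncapg2* were each lost in 4 such fits, and *plk1* and *nuf2* in 7.

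Of all members, 15 had every morphant and every mutant array below all 4 controls. This count was not made over all probe sets, and both groups were set against the same controls. The morphant minus mutant differences of the 15 ran from -0.19 for *cdk1* to 0.19 for *bub1*, with a median of 0.06, 4 below 0 and 11 above. In between, *top2a*, *smc4*, *bub1bb* and *cenpl* lay within 0.03 of 0 and *kif14*, *aurkb*, *ccnb1* and *kif11* at 0.13 to 0.18. The lowest adjusted p among the 15 was 0.312 by limma, with standard errors of 0.09 to 0.14, and a p that misses the threshold does not show that the groups were alike. The lowest difference among genes outside the 4 matched by the start of the symbol was -0.19 ± 0.14 for *cdk1* (0.396). *ccnb2* (-0.18) and *pttg1* (-0.13) were lower in morphants than in mutants by their means as well, and none of these 3 passed.

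**Figure D4:**
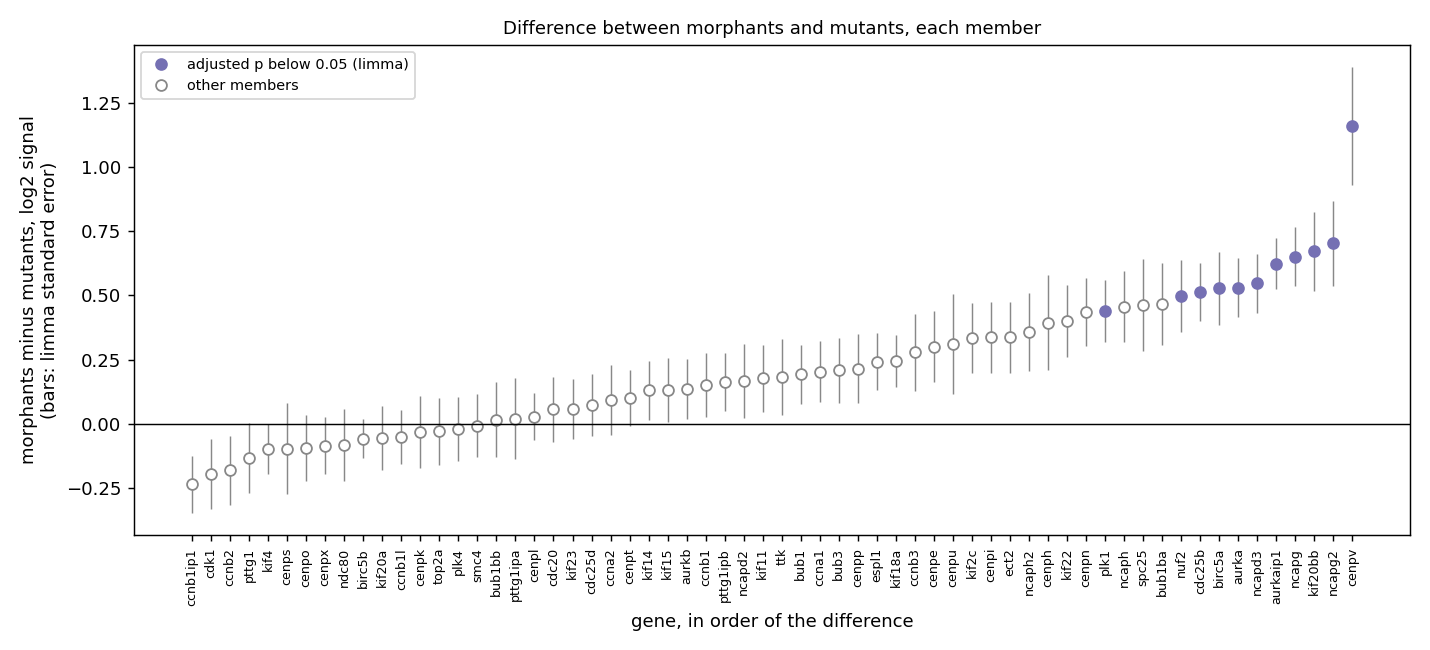
Morphant minus mutant difference in mean log2 signal for each gene, in increasing order, with limma standard errors and filled points for an adjusted p below 0.05. Points run from -0.24 for *ccnb1ip1* to 1.16 for *cenpv*, and all 11 filled points are positive.

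Because the controls joined both kinds of wildtype, each treated group was also set against its own. Mutants were lower than their siblings for 58 of 62 genes (46.3% of probe sets), with a median of -0.38. By limma 36 were lower at an unadjusted p below 0.05 (4.5%), 0 higher (5.63%), and 0 passed adjustment (0.0798% lower). Morphants were lower than uninjected wildtype for 50 of 62 (54.5%), with a median of -0.21, 16 lower (7.45%) and 2 higher (8.22%) at an unadjusted p below 0.05, and 0 past adjustment (0.404% lower). The siblings were lower than uninjected wildtype for 47 of 62 genes (75.8%, against 52.8% of probe sets and 51.6% of named genes), the same direction as in morphants and mutants against controls. The median was -0.09, with 1 gene lower at an unadjusted p below 0.05 (3.84% of probe sets, *cenpk*, -0.33) and 0 past adjustment. With each group set against its own kind of wildtype, the morphant change minus the mutant change reached a call for 0 of 62 members (0.594%) and passed adjustment for 0 (0.622% higher). At an unadjusted p below 0.05, 8 were higher (12.9% of members, 7.8% of probe sets, 12.6% of named genes) and 0 lower (8.15%) by limma, and the share of higher genes is that of the named genes. The lowest adjusted p of this difference was 0.105, for *cenpv* (1.46). The count of 8 ran from 2, without uninjected wildtype 1, to 14, without mutant 1. It was 3 without sibling 1, 4 without mutant 2 or mutant 3, and 5 without any 1 of the morphants.

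Genes of DNA replication, which act in the S phase before mitosis, were lower in mutants for 46 of 46 measured, with a median of -0.35 (30 lower at an unadjusted p below 0.05, 0 past adjustment by limma). The 3 with the lowest p were the DNA polymerases *pola1* (-0.55, adjusted p = 0.1) and *pole* (-0.52, 0.145) and the helicase subunit *gins3* (-0.41, 0.172). Against their own siblings, mutants were lower for 43 of 46 (median -0.27), with 6 lower at an unadjusted p below 0.05 by limma. The siblings were themselves lower than uninjected wildtype for 41 of 46 (median -0.17). On its centred mean, mutant 1 (0.03) lay above sibling 2 (-0.04). In morphants the same list had a median of -0.04 against controls. There *tk1* (-0.75, 0.0161) and *dut* (-0.43, 0.0262) of nucleotide supply fell and the origin gene *orc3* rose (0.70, 0.0165). Those are 4.35% lower and 2.17% higher of the list, against 2.81% and 7.13% of named genes. Morphant means were higher than mutant means for 40 of 46 (87%, against 49.8% of named genes), with a median of 0.29. In that comparison 5 of the 46 rose in morphants (10.9%) and 0 fell (13.5% and 9.63% of named genes). With each group set against its own wildtype, the morphant change exceeded the mutant change for 30 of 46 (median 0.12).

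Kinetochore, checkpoint and anaphase-promoting complex genes outside the symbol rule (31 measured) had lower means in mutants for 28, with a median of -0.25 and 15 lower at an unadjusted p below 0.05. The lowest adjusted p in that list was 0.059, for the microtubule-binding *ska3* (-0.68). Cohesin and central spindle genes (30 measured) were lower for 28 with a median of -0.26, 17 lower and 2 higher at an unadjusted p below 0.05. *fbxo5*, which inhibits the anaphase-promoting complex, differed by -0.54 in mutants (0.0718) and fell by 0.55 in morphants (0.0163). With *ckap5*, a microtubule-binding protein of the spindle (-0.38, 0.0471), it made 2 of the 30 that fell in morphants (6.67%, against 2.81% of named genes), where 26 had lower means (median -0.17). In morphants the kinetochore and anaphase-promoting complex list was even, with 16 lower and 15 higher means (median -0.03) and 6 lower and 5 higher at an unadjusted p below 0.05. Only *ube2s* (-0.36, 0.041) fell, 1 of 31 (3.23%), which is near the share of named genes. Against mutants, 9 of these 31 rose in morphants and 1 fell (29% and 3.23%, against 13.5% and 9.63% of named genes).

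G1 cyclins and their kinases (9) and regulators of mitotic transcription (21) had medians of -0.23 and -0.12 in mutants, with 0 past adjustment, and -0.01 and -0.01 in morphants. In morphants *ccnd1* (0.51, limma adjusted p = 0.0115), *ccnd2a* (0.42, 0.0153), *rbl2* (0.71, 0.0162) and *lin37* (0.52, 0.0323) rose. These were 2 of the 9 G1 genes and 2 of the 21 regulators (22.2% and 9.52%, against 7.13% of named genes), the latter near the background. Of 30 genes of cell cycle exit and p53 targets, 11 rose in morphants (36.7%, against 7.13% of named genes), 5 of them called (0.67% of probe sets called higher), and 1 fell, with *cdkn1a*, the inhibitor of cyclin-dependent kinases, higher by 2.05 (1.07e-05). The 1 that fell in morphants is 3.33% of the list, near the 2.81% of named genes. In mutants 0 rose (0.158% of probe sets) and 1 fell, *btg2* (-0.67, limma adjusted p = 0.0476). That is 3.33% of the list, against 0.179% of probe sets. The centred mean of that list was 0.23 to 0.25 on the morphant arrays, -0.16 to 0.01 on the controls and -0.12 on all 3 mutant arrays.

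Markers of several cell types, but not of all, moved with the groups too. Of 15 neural progenitor markers, 11 had lower means in mutants (median -0.30, 8 lower and 1 higher at an unadjusted p below 0.05, 0 past adjustment). In morphants 8 had lower and 7 higher means (median -0.02, from -0.65 to 0.84). At an unadjusted p below 0.05, 1 was lower and 5 higher there by limma. After adjustment 1 fell and 1 rose (6.67% each, against 2.81% and 7.13% of named genes). The centred mean of the progenitor markers was -0.33 to -0.08 on mutant arrays, -0.12 to 0.13 on controls and 0.15 to 0.17 on morphants. Of 13 markers of differentiated neurons, 12 had higher means in mutants (median 0.35, 7 higher, 0 past adjustment). In morphants 13 were lower (median -0.30) and 3 fell (23.1%, against 2.81% of named genes). The neuron mean was 0.13 to 0.43 on mutant arrays, -0.10 to 0.09 on controls and -0.50 to -0.12 on morphants. On the mutant arrays the 2 arrays with the lowest mitotic mean, mutants 2 and 3, had the highest neuron mean (0.43 and 0.36). The morphant arrays did not show this order. Morphant 3 had both the highest mitotic mean (0.05) and the highest neuron mean (-0.12) of its group. A link between the 2 means was not tested. Lens markers (8) ran from 0.23 to 0.61 on mutants, -0.16 to 0.20 on controls and -0.94 to -0.35 on morphants. In mutants 7 of them had higher means (median 0.28, 0 past adjustment). In morphants 8 had lower means (median -0.52) and 2 fell (25%, against 2.81% of named genes), both of them called. Heart markers (6) ran the other way, with 6 higher means in morphants (median 0.36) and 5 lower in mutants (0 past adjustment, median -0.25). In morphants 1 of the 6 rose (16.7%, against 7.13% of named genes). The heart centred mean was 0.17 to 0.39 on morphants, -0.22 to 0.21 on controls and -0.32 to -0.19 on mutants. In morphants 3 of 14 blood markers fell (21.4%, median -0.25) and 3 of 17 skeletal muscle markers rose (17.6%, median 0.05). Of these muscle markers 1 was called (0.67% of probe sets called higher). Of 11 retinal progenitor markers 2 fell and 2 rose (18.2% each, median 0.18). The list shares *ccnd1* with the G1 cyclins, so 1 of the 2 that rose was already counted there. The 2 that fell were called (0.818% of probe sets called in either direction). Among named genes 2.81% fell and 7.13% rose. By limma, 0 of the blood, muscle and retinal markers passed adjustment in mutants, where medians were 0.04, -0.05 and -0.09. At an unadjusted p below 0.05, 1 blood marker was lower and 2 higher, 2 muscle markers were lower and 0 higher, and 3 retinal markers were lower and 2 higher. Epidermis markers (8) had medians of -0.06 in morphants and -0.01 in mutants. Germ cell markers (7), mostly dim, had medians of -0.003 and 0.07. In both lists 0 passed adjustment by limma in either group against controls. The 2 kinds of wildtype differed in the epidermis list, with siblings above uninjected wildtype for 8 of 8 markers (median 0.20). Mutants were below their own siblings for 8 of 8 (median -0.08, lowest adjusted p 0.0514 by limma). Morphants were above uninjected wildtype for 5 of 8 (median 0.09). For the difference of these changes 1 of 8 was called, higher (limma adjusted p = 0.0339, 12.5% against 0.594% of probe sets called). The part of these cell types in the differences of the mitotic genes was not tested.

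**Figure D5:**
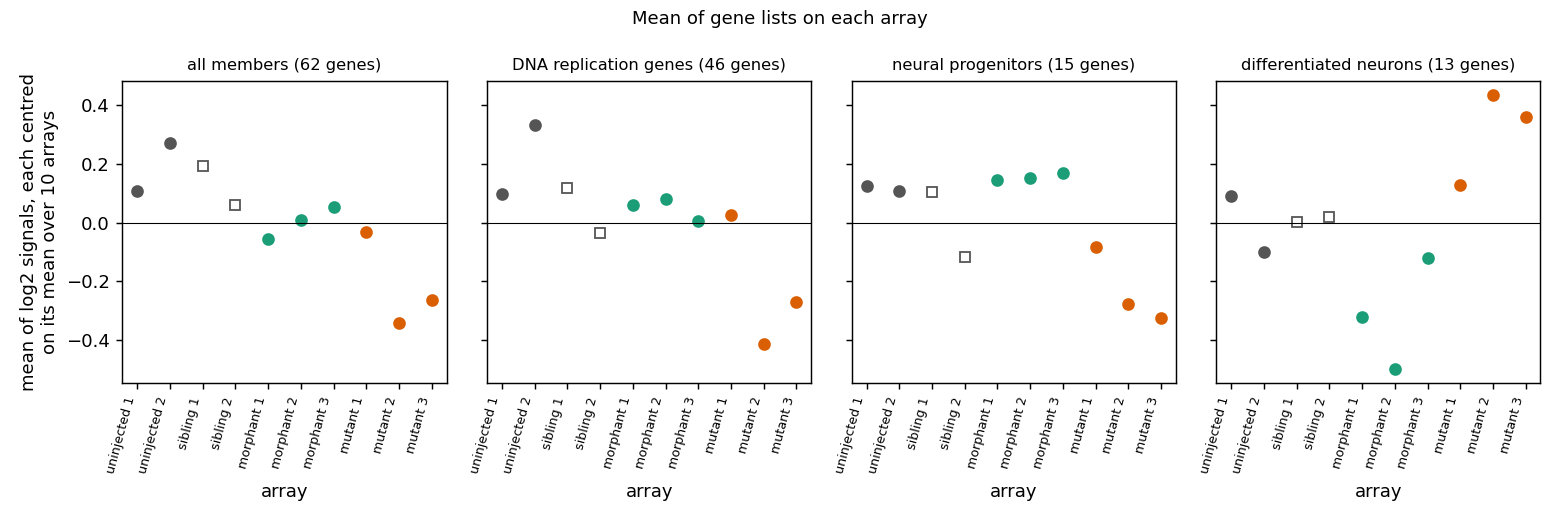
Mean log2 signal of 4 gene lists on each array, with every gene centred on its mean over the 10 arrays, in controls (grey, open squares for siblings), morphants (green) and mutants (orange). Mitotic and replication genes are lowest on mutants 2 and 3, neural progenitor markers are lower on all mutants than on all morphants, and markers of differentiated neurons are highest on mutants and lowest on morphants.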

How the data were processed

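RNA from 10 pools of whole zebrafish embryos was hybridized to GeneChip Zebrafish Gene 1.0 ST arrays (100 ng of total RNA each). The deposited values are log2 signals. By the paper's methods they came from robust multi-array averaging with oligo. It removes background, gives the arrays equal distributions and then summarizes the probes of a set. The submitters' processing notes name GCRMA instead, and neither source gives a version. Which method made the deposited values could not be settled. Values ran from 1.39 to 13.3, with array medians of 4.92 to 4.96. The number of arrays limits the precision, and the annotation gave 20806 probe sets 1 symbol, 855 several and 53551 none.

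Under R 4.3.3, a two-sided limma 3.58.1 model held the 3 group means (7 residual and 3.13 prior degrees of freedom), and a fit with 4 conditions (residual degrees of freedom 6) gave the changes against each group's own wildtype. All 62 members had their gene identifiers in the reference names, with current symbols, and 55 lay above the median probe set. *birc5b*, *ccna1*, *ccnb1ip1*, *ccnb1l*, *cdc25d*, *cenpv* and *pttg1* did not and are called dim. The genes with values array by array were 24 core regulators, of which those measured are shown, the 5 with the lowest p in each comparison and any with an unadjusted p below 0.05 against the members' median. *bub1bb* was added after its values were seen. Members and lists were chosen with earlier results of these data known. The limma calls of the 3 comparisons were tried on simulated data with independent noise and added log2 differences of 1.5 or 2.5. They recovered 90 to 100 of 100 changed probe sets. Differences as small as those of the members were not simulated. Alternatives were limma on 2 groups alone, the methods' 2-group analysis of variance, array weights, a trended prior, either wildtype alone as control, removal of dim probe sets, averages per gene, quantile normalization run again, a replicate block, probe sets with 1 symbol, median-centred arrays, and each array left out. Identical probe sets counted once, the 4 members matched by the start of the symbol left out, and counts at an adjusted p were added after the data were seen. Tables and figures came from matplotlib 3.10.9, scipy 1.17.1, pandas 2.3.3 and numpy 2.4.6 under Python 3.11.15.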

Additional observations from a re-analysis of the deposited data

Results flagged for a closer look

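In 72 sets of 4 control values (the 62 genes and the means of 10 lists of them), 2 held an array whose gap to its neighbour exceeded Dixon's 95% critical value for 4 samples, and chance flags about 1 in 20. *cenpv* read 3.88 on uninjected wildtype 1, against 4.46 to 4.54 on the other controls. *pttg1ipb* read 7.43 on sibling 2, against 7.28 to 7.31 on the others. The change of morphants minus the change of mutants, each against its own wildtype, passed an adjusted p below 0.05 by limma for 0 of 62 genes (8 at an unadjusted p below 0.05).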

How the results depend on the processing

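For morphants against controls, the 4 genes that fell became 1 with limma on 2 groups alone (*smc4*), 0 by the methods' 2-group analysis of variance, 0 with either wildtype alone as control and 1 with the replicate block (*kif20a*). They became 7 with a trended prior or with identical probe sets counted once, 9 with repeated quantile normalization or a filter on dim probe sets, 10 with only probe sets of 1 symbol and 12 with averages per gene. The dim filter, probe sets of 1 symbol, averages per gene and identical probe sets counted once tested fewer probe sets, and the cause of the other shifts was not tested. The 1 gene that rose became 0 by the analysis of variance, with uninjected wildtype alone as control, and without the 4 genes matched by the start of the symbol. With no fold threshold the count of calls was 5. With each array left out in turn, the genes that fell ran from 0 to 5, the unadjusted count from 12 to 21 lower and from 1 to 2 higher, and the median from -0.21 to -0.13. Sibling wildtype alone as control gave 10 lower and 1 higher at an unadjusted p. Arrays centred on their median, the dim filter, the replicate block and the removal of the 4 genes gave 1 higher each. Shares over all probe sets were not counted for the alternative fits, so none stands beside these counts or those below.

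For mutants against controls, the count of 0 past adjustment became 4 with the dim filter, 12 with probe sets of 1 symbol, 16 with averages per gene and 1 with identical probe sets counted once (all fewer tests), and ran from 0 to 8 with each array left out. The unadjusted count ran from 35 to 49 lower and from 0 to 1 higher, and the median from -0.51 to -0.32.

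For morphants against mutants, the 1 call became 0 by the analysis of variance and with the dim filter, which leaves *cenpv* out, and 11 with no fold threshold. With each array left out it ran from 0 to 1, the 11 genes that rose from 4 to 16, the unadjusted count from 14 to 31 higher and from 0 to 1 lower, and the median from 0.12 to 0.27. The 11 became 1 by the analysis of variance. The unadjusted count of lower genes became 1 with limma on 2 groups alone, the analysis of variance, averages per gene, array weights and the replicate block.

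For the difference of changes against each group's own wildtype, 1 gene was called with probe sets of 1 symbol and with averages per gene. At an unadjusted p, 5 were higher with repeated quantile normalization, and with each array left out 2 to 14 were higher and 0 to 1 lower. Over all alternatives, 33 of 1419 values of single genes changed sign for morphants against controls and 7 of 1419 for mutants against controls. For morphants against mutants 35 of 1419 did. None of these values had an unadjusted p below 0.312. In the main fit the genes concerned differed by no more than 0.10, but a value after the change of sign could be larger. For *smc4*, morphants against mutants ran from -0.13 to 0.12 over the alternatives, against -0.008 in the main fit. Deviations of arrays with the same replicate number correlated at -0.10 to 0.22, and those with different numbers at -0.22 to 0.10. In a group of 2 arrays the deviations mirror each other, so these correlations cannot decide whether the numbers pair the arrays. The replicate block gave 8 genes that rose in morphants against mutants and 43 lower in mutants at an unadjusted p.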
